A study of Homo sapiens with 5 samples.

Results

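The MYC network, a small set of transcription factors that pair through a basic helix-loop-helix zipper, was described in RPE-1 cells 48 hr after knock-down of FAM53C. Its genes were taken by symbol, with earlier results of these data known: *MYC*, *MYCN*, *MAX*, *MXD1*, *MXD3*, *MXD4*, *MXI1*, *MNT*, *MLX* and *MGA*, 10 of the 64252 gene identifiers in the count table. Of these, 9 passed the filter on low counts, among 15341 genes tested, and *MYCN* had no count in any library. MYC and its relative MYCN bind DNA only as a pair with MAX, at the E-box sequence CACGTG, and raise transcription of genes for growth, ribosome production and cell division. The MXD proteins (MXD1, MXD3, MXD4 and MXI1), MNT and MGA also pair with MAX and occupy the same sites, where MXD proteins and MNT bring in the SIN3-HDAC corepressor and MGA a Polycomb complex. MLX is a second common partner, which binds MNT and some MXD proteins and also the nutrient-sensing factors MondoA and ChREBP. MYC is well known for pushing cells from G1 into S phase, the transition that the study examined.

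RPE-1 is an immortalized, wild-type human retinal pigment epithelial line. The compared cells received either the ON-TARGET Control #1 siRNA (siCtrl, 3 libraries) or a pool of ON-TARGETplus siRNAs against FAM53C (siFAM53C, 2 libraries), each at 5 µM by the sample labels, with RNAiMAX in both arms. The groups thus differ in the siRNA sequences as well as in FAM53C, and these cannot be told apart. Nothing in the labels says whether libraries of a group came from separate cultures, so p-values measure only the spread between these libraries, which may be technical.

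The libraries held from 19260124 to 25615415 counts on genes. *FAM53C*, the targeted gene, had 60.8, 59.6 and 57.5 CPM (counts scaled to library size) in siCtrl and 14.2 and 22.3 in siFAM53C, so that 30.7% of the control level remained (log2 fold change -1.71, SE 0.19, edgeR quasi-likelihood, adjusted p = 0.003625). The first principal component of log2 CPM, with 39.8% of the variance, was -31.5, -47.4 and 33.7 in siCtrl and 0.264 and 44.9 in siFAM53C. The libraries were split at its widest gap, and siFAM53C replicate 1 lay about as far from siCtrl replicate 1 as from siCtrl replicate 3, so that its place in the split is nearly arbitrary. siCtrl replicates 1 and 2 and siFAM53C replicate 1 thus form the larger side, and the remaining pair of libraries forms the smaller side. Differences are also given inside the larger side and inside the smaller side, in that order. Of the markers of retinal pigment epithelium, *RPE65* was at 0 in every library and *RLBP1* and *TYR* were at or below 0.0848 CPM. *BEST1*, *PMEL* and *LRAT* had at most 1.73 CPM, whereas *OTX2* had from 13.5 to 17.1 CPM and *MITF* from 34.0 to 48.8. The epithelial keratin *KRT8* had from 236 to 327 CPM and *KRT18* from 147 to 182, while *CDH1* and *EPCAM* had at most 0.17. Of the mesenchymal markers, *VIM* had from 3220 to 4140 CPM, *FN1* from 4710 to 7120 and *CDH2* from 214 to 391, and *COL1A1* had 18.3, 15.8 and 18.6 CPM in siCtrl and 29.1 and 29.4 in siFAM53C and was called higher (log2 fold change 0.74, edgeR quasi-likelihood, adjusted p = 0.03098). The leukocyte and endothelial markers *PTPRC*, *PECAM1* and *CDH5* had at most 1.05 CPM.

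Since the network acts at E-boxes, the promoters of its own genes were searched for CACGTG, which reads the same on both strands. RefSeq promoters on GRCh38.p14, 250 bases before to 50 after the start, were matched for 9 members, all but *MYC*. The E-box was present in 3, *MXD4*, *MNT* and *MLX*, with its first base at -238, -193 and -50 relative to the start, where 7.43% of the 27305 promoters hold it. The windows below are shown because they are the only E-boxes found beside network genes. They come from chr4:2262331-2262358 (minus strand), chr17:2401237-2401264 (minus strand) and chr17:42567039-42567066 (plus strand), and capitals mark the E-box.
MXD4: ggccgggccacCACGTGctgttgctaag
MNT: cctgcccgggcCACGTGtgcgcgcgccg
MLX: cgggcgcgggtCACGTGggcacgccacc
A match in these letters is not evidence of binding. The log2 fold changes of these 3 genes lay between 0.11 and 0.22, and none passed the test. Of the tested genes matched to a promoter, 9.96% held an E-box. Those with one (1059 genes) had a median log2 fold change of 0.0248 and those without one (9574 genes) a median of 0.00964. Of the former 5% and of the latter 4.12% were called lower.

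*MYC* transcript levels were close in the 2 conditions, and *MXI1* was the member that fell. Of the 9 members tested, 1 was lower (*MXI1*) and 0 were higher by edgeR's quasi-likelihood method at an adjusted p of 0.05, where the shares of all genes tested were 3.47% for lower and 0.489% for higher. An unadjusted p under 0.05 was reached by 1 lower and 1 higher member (*MXD3*), against 10.5% and 6.61% of all genes, and DESeq2 called 1 lower and 0 higher, against 6.74% and 1.93%. *MXI1* was also called lower with no filter on low counts (3.61% of genes lower, 1.41% higher), with replicate numbers from the titles as a block (5.58% lower, 2.31% higher), with those from the column names as a block (8.8% lower, 4.18% higher) and with a term for the split (10.7% lower, 6.76% higher). *MAX* was called higher in the last 2 of these fits and *MXD3* in the last. The median log2 fold change of the members was 0.11, beside 0.016 for all genes. For 2 members, *MXI1* and *MXD1*, both siFAM53C libraries were below the lowest siCtrl library, as for 18.8% of all genes tested. For 4, *MAX*, *MXD3*, *MNT* and *MLX*, both were above the highest, as for 16.7% of all genes. RNA was measured in bulk, so that fewer cells with a transcript and less of it per cell cannot be told apart.

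**Figure D1:**
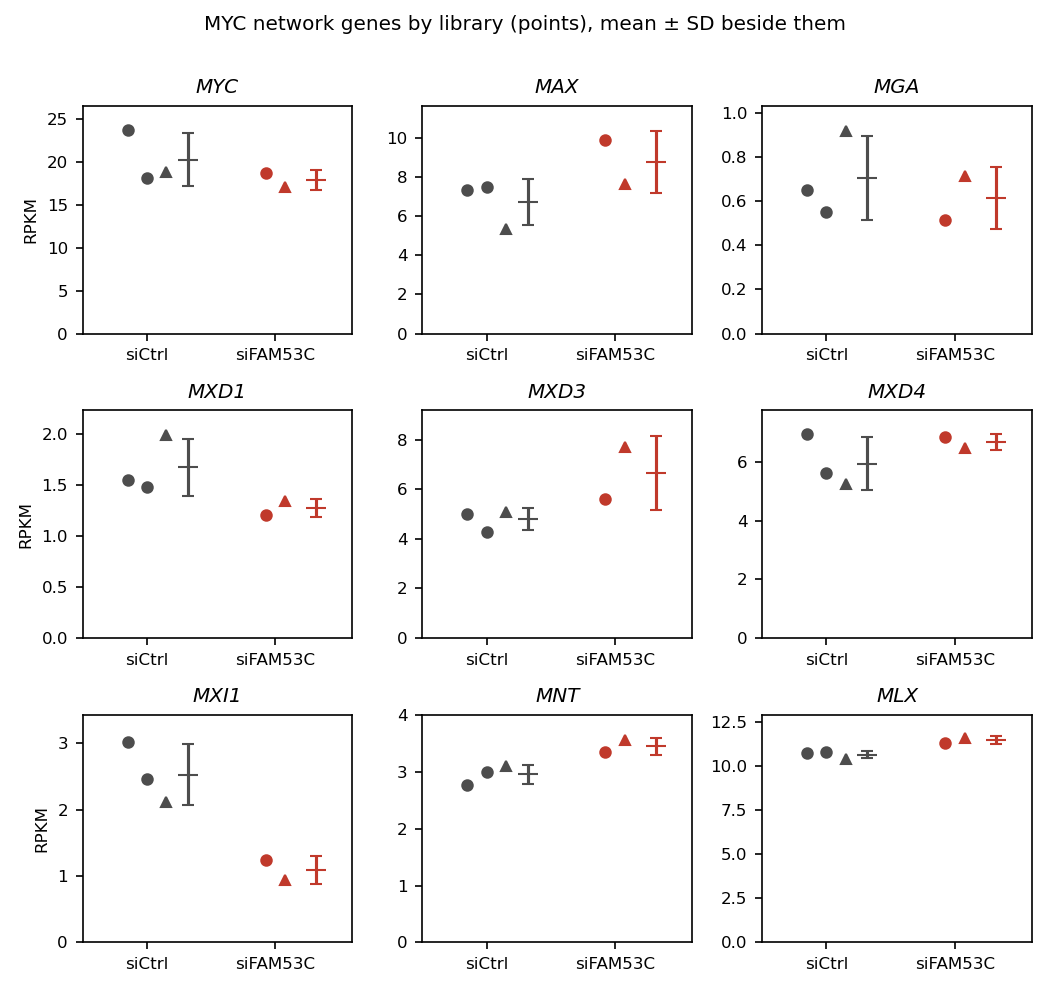
Level of each MYC network gene per library in RPKM (CPM per kilobase of exon), with a linear axis from 0. Each point is a library, grey for siCtrl (n = 3) and red for siFAM53C (n = 2), triangles mark siCtrl replicate 3 and siFAM53C replicate 2, and the bars beside the points give mean ± SD. *MXI1* was at 2.11 RPKM or more in siCtrl and at 1.24 or less in siFAM53C, whereas the *MYC* points of the conditions overlap.

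Per kilobase of exon (RPKM), *MYC* was the most abundant member in every library. The length used was the union of all annotated exons of a gene (6109 bases for *MYC*, 20074 for *MGA*). It is not the length of the transcripts present, so the order between genes depends on the annotation. In siCtrl its mean was 20.3 ± 3.07 RPKM (SD, n = 3), followed by *MLX* at 10.6 ± 0.217, *MAX* at 6.71 ± 1.19, *MXD4* at 5.94 ± 0.899, *MXD3* at 4.79 ± 0.452, *MNT* at 2.96 ± 0.172, *MXI1* at 2.53 ± 0.453, *MXD1* at 1.67 ± 0.279 and *MGA* at 0.704 ± 0.189 RPKM. Among neighbours in this order, *MAX* and *MXD4* overlapped between libraries, as did *MNT* and *MXI1*, while each other pair of neighbours was separate in the siCtrl libraries. In siFAM53C the order was the same down to *MNT*, and *MXD1* (1.27 ± 0.0907 RPKM, SD, n = 2) then stood before *MXI1* (1.09 ± 0.212), with overlap between these neighbours and between *MXD4* and *MXD3*. *MYCN* had 0 counts in each library, which allows levels of up to 0.113 to 0.157 CPM (3 counts per library, counting error only), and the MYCN antisense gene *MYCNOS* had none either.

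*MYC* (ENSG00000136997, chr8:127735434-127742951 on GRCh38, plus strand) had 145, 111 and 115 CPM in siCtrl and 114 and 105 in siFAM53C. Only siCtrl replicate 1 stood above the rest, and the conditions overlapped. The log2 fold change was -0.18 (SE 0.14, 95% interval -0.50 to 0.15, edgeR quasi-likelihood, adjusted p = 0.5928), and it was -0.15 and -0.14 inside the larger and the smaller side. Without siCtrl replicate 1 it was -0.047. The long non-coding RNA *PVT1*, the neighbour of *MYC* on the chromosome, had from 8.63 to 11.7 CPM and a log2 fold change of 0.092 (SE 0.21), which turned below 0 in 3 alternative fits. The genes whose profile over the 5 libraries was most like that of *MYC*, by the root mean square difference of centred log2 CPM among 8976 protein-coding genes, were *ZC3H7B* (0.038), *RREB1* (0.048) and *ASCC2* (0.049), where the median gene differed by 0.231.

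*MAX* (ENSG00000125952, chr14:65006174-65102695, minus strand), the obligate partner, had 45.8, 46.7 and 33.4 CPM in siCtrl and 61.7 and 47.9 in siFAM53C. Both siFAM53C libraries were above every siCtrl library, although siFAM53C replicate 2 exceeded siCtrl replicate 2 only slightly. The log2 fold change of 0.38 (SE 0.18, 95% interval -0.04 to 0.8) did not pass the test (edgeR quasi-likelihood, adjusted p = 0.3355). Inside the larger and the smaller side it was 0.41 and 0.52, and *MAX* was called higher with a term for the split (0.46, edgeR quasi-likelihood, adjusted p = 0.003429), a fit in which 6.76% of all genes were called higher. It was 0.18 without siFAM53C replicate 1, 0.25 without siCtrl replicate 3 and 0.23 with a block by titles, and it was not called in these fits. Of the 6257 exon bases of *MAX*, 1006 lie opposite exons of *FNTB* and other genes, so its reads are uncertain if the counting ignored strand.

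*MXI1* (ENSG00000119950, chr10:110207605-110287365, plus strand), an antagonist that pairs with MAX in place of MYC, had 419, 278 and 238 counts in siCtrl and 194 and 131 in siFAM53C. In CPM these were 17.8, 14.5 and 12.5 against 7.32 and 5.55, so the conditions were separate. Of its 5907 exon bases, 205 lie opposite an unnamed gene. The mean went from 14.9 ± 2.68 (SD, n = 3) to 6.44 ± 1.25 CPM (SD, n = 2), 43.2% of control by the fit. The log2 fold change was -1.21 (SE 0.24, 95% interval -1.76 to -0.67, edgeR quasi-likelihood, adjusted p = 0.03277). Inside the larger and the smaller side of the split it was -1.12 and -1.15. Over the 15 alternatives with an adjusted p it ranged from -1.43 to -1.03. *MXI1* was no longer called without siCtrl replicate 1 (-1.06), siCtrl replicate 2 (-1.23), siFAM53C replicate 1 (-1.43) or siFAM53C replicate 2 (-1.03), with adjusted p from 0.109 to 0.2167 by edgeR quasi-likelihood; it was called without siCtrl replicate 3 (-1.32). Its nearest profiles were those of *SOX4* (0.072, a transcription factor gene), *MRPL54* (0.095, a mitochondrial ribosomal protein gene) and *TMEM167B* (0.114), where the median gene differed by 0.627 from *MXI1*. All 3 were themselves called lower, with log2 fold changes of -1.09, -1.25 and -1.17. This follows from their choice by likeness to *MXI1* over these same libraries and is not a separate result.

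The 3' UTR of *MXI1* holds a heptamer, GACAAGA, that was common among genes lower in siFAM53C. Of the 1399 tested genes with GACAAGA in their longest annotated 3' UTR, *FAM53C* left out, 15.1% were called lower, against 2.92% of the 10673 genes without it. The heptamer had been picked on these same libraries, so these shares are a description. Among the members, 2 of 10 hold it, *MXI1* and *MLX*, where 11.6% of the tested genes do, and their sites are shown because the first belongs to the member that fell and the second to one that did not. They lie at chr10:110285413-110285439 and chr17:42573159-42573185 of GRCh38, both on the plus strand, and capitals mark the heptamer.
MXI1: cgaatgaaaaGACAAGAaaatcaggta
MLX: tctgtagcctGACAAGAaataaaacca
The part of this sequence in the *MXI1* value was not tested.

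**Figure D2:**
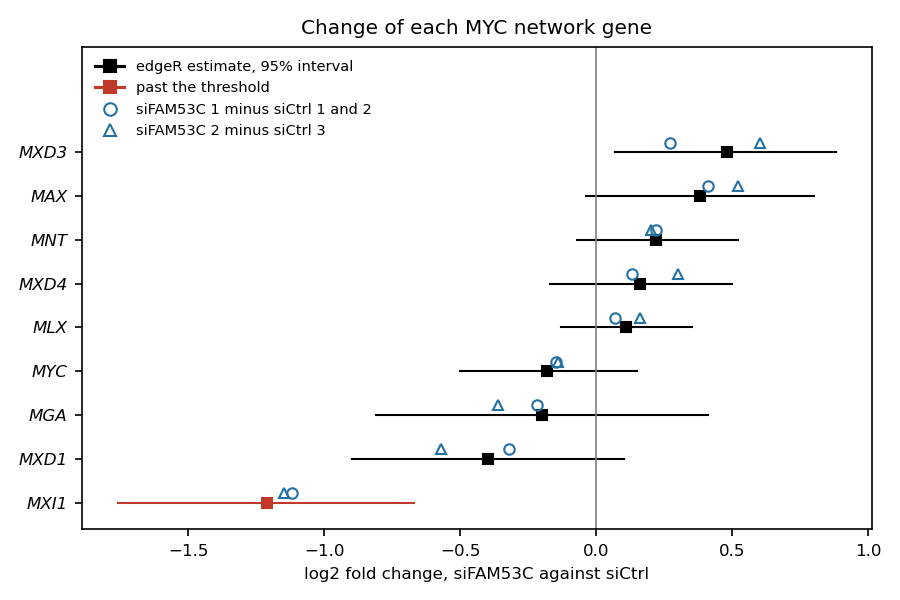
Log2 fold change of each tested member, siFAM53C against siCtrl, with its 95% interval from the edgeR fit (squares and lines, red past the threshold) and the log2 difference within each side of the library split (open circles and triangles). *MXI1*, at -1.21, is the only member whose interval lies wholly below 0, and that of *MXD3* (0.07 to 0.88) lies above 0 without passing the adjusted threshold.

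*MXD1* (ENSG00000059728, chr2:69897688-69942945, plus strand), the founding MXD gene, had 9.84, 9.41 and 12.7 CPM in siCtrl and 7.66 and 8.48 in siFAM53C. Both siFAM53C libraries were the lowest of the 5. The log2 fold change was -0.40 (SE 0.22, 95% interval -0.9 to 0.1, edgeR quasi-likelihood, adjusted p = 0.412), and it was -0.32 and -0.57 inside the sides. It stayed below 0 in each of the alternative fits, from -0.48 to -0.25, and passed the adjusted threshold in none of them.

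*MXD3* (ENSG00000213347, chr5:177301461-177312757, minus strand), an MXD gene known for its expression in S phase, had 23.8, 20.2 and 24.1 CPM in siCtrl and 26.5 and 36.6 in siFAM53C. The siFAM53C libraries were the highest, and replicate 2 lay well above replicate 1. The log2 fold change was 0.48 (SE 0.17, 95% interval 0.07 to 0.88, edgeR quasi-likelihood, adjusted p = 0.2223), and it was 0.27 and 0.60 inside the sides; it passed the threshold with the term for the split (0.41, edgeR quasi-likelihood, adjusted p = 0.04408). Without siFAM53C replicate 2 it was 0.22. Of its 4743 exon bases, 1148 lie opposite *PRELID1* and 926 are shared with *RAB24* on the same strand, so reads of *MXD3* are partly uncertain.

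*MXD4* (ENSG00000123933, chr4:2247432-2262109, minus strand) had 47.8, 38.6 and 36.1 CPM in siCtrl and 47.2 and 44.5 in siFAM53C, and the conditions overlapped. Its log2 fold change of 0.16 (SE 0.14) was close to its standard error. *MNT* (ENSG00000070444, chr17:2384073-2401104, minus strand), the broadly expressed MYC antagonist, had 24.1, 26.1 and 27.0 CPM in siCtrl and 29.1 and 31.0 in siFAM53C. The conditions were separate by a small margin, with a log2 fold change of 0.22 (SE 0.13, 95% interval -0.07 to 0.52, edgeR quasi-likelihood, adjusted p = 0.4398). *MLX* (ENSG00000108788, chr17:42567072-42573239, plus strand) varied least, with 45.5, 46.0 and 44.2 CPM in siCtrl and 48.1 and 49.6 in siFAM53C. Its log2 fold change was 0.11 (SE 0.1, 95% interval -0.13 to 0.35). *MGA* (ENSG00000174197, chr15:41621134-41773081, plus strand) had 13.0, 11 and 18.4 CPM in siCtrl and 10.3 and 14.3 in siFAM53C. In both conditions the library on the smaller side of the split was the highest, and the log2 fold change of -0.20 (SE 0.26) was within its standard error.

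The transcripts of the MAX-binding antagonists were also added up per kilobase of exon, as a description without a test. The sizes of these sums and ratios depend on the annotated exon lengths, and reads of *MXD3* are partly uncertain. *MXD1*, *MXD3*, *MXD4*, *MXI1* and *MNT* together had 19.3, 16.8 and 17.5 RPKM in siCtrl and 18.3 and 20.0 in siFAM53C, so the sums overlapped. *MXI1* made up 15.6%, 14.6% and 12.0% of this sum in siCtrl and 6.79% and 4.69% in siFAM53C. *MXD3* and *MXD4* together had 12.0, 9.88 and 10.3 RPKM in siCtrl and 12.5 and 14.2 in siFAM53C. The ratio of *MYC* to the sum was 1.23, 1.08 and 1.07 in siCtrl and 1.02 and 0.855 in siFAM53C, and that of *MYC* to *MAX* was 3.25, 2.43 and 3.52 in siCtrl and 1.89 and 2.24 in siFAM53C. Both ratios were lower in each siFAM53C library than in each siCtrl library, by small margins (1.02 against 1.07, and 2.24 against 2.43). Of single genes tested, 18.8% had both siFAM53C libraries below every siCtrl library. No such share was computed for ratios. Transcript levels do not give the amounts of the proteins.

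**Figure D3:**
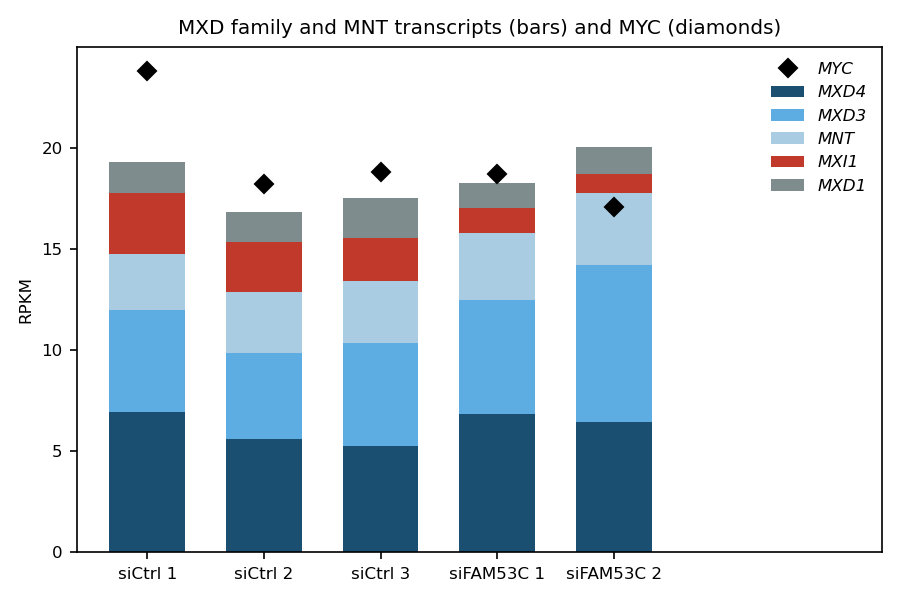
Stacked bars give the RPKM of 5 MAX-binding antagonists in each library, and diamonds give *MYC* on the same linear axis from 0. The *MXI1* segment, from 2.11 to 3.01 RPKM in siCtrl, is 1.24 and 0.94 RPKM in siFAM53C, while the whole bars overlap between the conditions (16.8 to 19.3 against 18.3 and 20.0 RPKM).

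Among genes that act on the MYC protein, *SKP2*, *BTRC* and *GSK3B* were lower, and of these only *SKP2* was called in each alternative. This and the following lists were written with earlier results of these libraries known, so their shares are descriptions and not independent evidence. The list of 15 genes for ubiquitin ligases, deubiquitinases, kinases and phosphatase parts that set MYC stability was tested in full. Of these, 13 lay below 0, beside 7391 of all 15341 genes tested. The median log2 fold change of the list was -0.29, beside 0.016 for all genes. By edgeR's quasi-likelihood method 3 were lower (20%, where 3.47% of all genes were) and 0 higher (also 0 with DESeq2 and at an unadjusted p under 0.05). *SKP2*, the F-box subunit of a ligase for MYC and for the CDK inhibitor p27, had 62.3, 67.8 and 57.8 CPM in siCtrl and 22.4 and 18.8 in siFAM53C, with a log2 fold change of -1.60 (SE 0.14, edgeR quasi-likelihood, adjusted p = 0.001138). Inside the sides it was -1.53 and -1.62, and it was called in each of 15 alternatives with an adjusted p. *BTRC*, the F-box protein beta-TrCP, fell by 0.67 on the log2 scale (SE 0.13). *GSK3B*, a kinase that marks MYC for degradation, fell by 0.48 (SE 0.1). Both were called in 10 of 15 alternatives, and neither with library totals, without siCtrl replicate 1 or without siCtrl replicate 2. Over the alternatives *BTRC* ranged from -0.78 to -0.57 and *GSK3B* from -0.53 to -0.41. The heptamer GACAAGA is in the 3' UTR of 5 of the 15 genes (33.3%, beside 11.6% of tested genes), namely *SKP2*, *BTRC*, *FBXW7*, *HUWE1* and *PPP2R1A*, and not in that of *GSK3B*. Its part in these values was not tested. The largest values that did not pass, at a mean of at least 10 CPM, were those of *USP28* (-0.53), a MYC deubiquitinase, and *AURKA* (-0.49), a mitotic kinase that binds MYC proteins. *FBXW7*, the ligase subunit that reads the GSK3 mark, had a value of -0.29 (SE 0.15). In the lists below, the heptamer is in 15.4% of MGA partner genes and 12.5% each of cofactor and SIN3-HDAC genes. It is in 10% of other MYC-induced genes, 7.69% of MYC-repressed genes, 3.51% of growth genes and 0% of other E-box factors. The 3' UTRs of *CBX3*, *GNL3*, *TCOF1* and *DDX18*, named below as called lower, do not hold it.

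Among the genes of proteins that the network recruits, *CBX3* was lower. Of 16 MYC cofactors, 15 were tested and 0 passed in either direction by edgeR (DESeq2 called 1 lower and 0 higher, and an unadjusted p under 0.05 was reached by 1 lower and 3 higher genes), with a median of 0.08. The largest values were those of *BPTF* (-0.55), a subunit of a nucleosome remodeller, and *KAT2A* (0.48), a histone acetyltransferase. Of the 16 SIN3-HDAC genes, all tested, 0 passed by edgeR (DESeq2 called 3 lower and 0 higher, and an unadjusted p under 0.05 was reached by 4 lower and 1 higher genes), with a median of -0.087, *ING1* at -0.63 and *ARID4B* at -0.50. Beside these counts, DESeq2 called 6.74% of all genes lower and 1.93% higher. An unadjusted p under 0.05 was reached by 10.5% of all genes as lower and by 6.61% as higher. The scaffolds *SIN3A* (0.05) and *SIN3B* (0.33) and the deacetylase *HDAC1* (-0.049) had values that did not pass. The heptamer is in the 3' UTR of 2 of the 16 SIN3-HDAC genes, *SIN3A* and *HDAC2*. It is also in that of 2 of the 16 cofactor genes, *BPTF* among them. Each share was 12.5%, beside 11.6% of tested genes. Among the partners of MGA in its Polycomb complex, 12 of 13 genes were tested, with a median of -0.17 and 1 lower (8.33%, beside 3.47% of all genes). This was *CBX3*, which encodes the chromodomain protein HP1 gamma, with 264, 306 and 261 CPM in siCtrl and 119 and 123 in siFAM53C (log2 fold change -1.19, SE 0.12, edgeR quasi-likelihood, adjusted p = 0.002129). It was called in each of 15 alternatives, and reads from its processed pseudogenes may be split by the counting, and 368 of its 4840 exon bases lie opposite *HNRNPA2B1*. *HDAC2* (-0.42) and *L3MBTL2* (0.29) did not pass.

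The other E-box factors included 1 gene that was higher. Of 11 genes, 9 were tested, with a median of 0.057 and 1 higher (11.1%, beside 0.489% of all genes). *SREBF1*, the gene of a lipid synthesis regulator, rose by 0.63 on the log2 scale (SE 0.11, edgeR quasi-likelihood, adjusted p = 0.02384), from 69.2, 68.8 and 59.3 to 99.2 and 104 CPM. *SREBF2*, its relative for cholesterol synthesis, had a value of 0.35 (SE 0.17) and *USF1* of -0.14. *MLXIP*, which encodes MondoA, the MLX partner, had 87.8, 91.7 and 95.4 CPM in siCtrl and 96.8 and 93.9 in siFAM53C, whereas *MLXIPL*, which encodes ChREBP, had at most 2 counts in a library. *TXNIP*, the best known target of MLX with MondoA, rose by 0.63 (SE 0.13, edgeR quasi-likelihood, adjusted p = 0.04116), from 20.3, 18.3 and 19.6 to 30.3 and 29.8 CPM. *ARRDC4*, the other such target examined, had a value of -0.48 (SE 0.40) at under 2 CPM. *SREBF1* and *TXNIP* were each called in 11 of 15 alternatives and in none of the fits without siCtrl replicate 1 or 2 or without either siFAM53C library.

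Genes induced by MYC lay on both sides of 0. Of 57 growth and nucleolar genes, all tested, 31 were below 0 and 26 above, with a median of -0.042. By edgeR 4 were lower (7.02%, beside 3.47% of all genes) and 0 higher (beside 0.489%). DESeq2 called 6 lower and 1 higher, where 6.74% and 1.93% of all genes were called. An unadjusted p under 0.05 was reached by 9 lower and 3 higher genes, beside 10.5% and 6.61% of all genes. Besides *CBX3*, which was also listed here, the genes called lower by edgeR included *GNL3* (-0.74, SE 0.11), which encodes the nucleolar protein nucleostemin. The others were *TCOF1* (-0.66, SE 0.11), which encodes the nucleolar protein treacle that serves ribosomal DNA transcription, and *DDX18* (-0.55, SE 0.11), a nucleolar RNA helicase gene. *GNL3* had 131, 136 and 136 CPM in siCtrl and 73.5 and 88.1 in siFAM53C, so the conditions were separate. The largest that did not pass with a mean of at least 10 CPM were *NDUFAF4* (-0.75) and *TFB2M* (-0.68), both for mitochondrial proteins. An E-box was present in 20 of the 47 promoters matched to this list (42.6%, beside 7.43% of all promoters and 9.96% of those of tested genes). For the other MYC-induced genes below it was in 4 of 18 promoters (22.2%), and for the MYC-repressed genes in 0 of 8. The median of the growth list, centred on the 5 libraries, was 0.063, 0.058 and -0.045 in siCtrl and 0.023 and -0.045 in siFAM53C on the log2 scale, so the conditions overlapped.

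Of 20 other genes long described as induced by MYC, 19 were tested and 13 were below 0 (7391 of all 15341 genes were), with a median of -0.12. The median of this list over the libraries was 0.109, 0.109 and -0.091 in siCtrl and -0.033 and -0.076 in siFAM53C, so the conditions overlapped. By edgeR 0 were lower (beside 3.47% of all genes) and 1 was higher (5.26%, beside 0.489%). DESeq2 called 1 lower, beside 6.74% of all genes, and 5 were lower at an unadjusted p under 0.05, beside 10.5%. The higher gene was *E2F2*, a cell cycle transcription factor gene, with 19.2, 18.7 and 18.7 CPM in siCtrl and 32.8 and 34.3 in siFAM53C (log2 fold change 0.83, SE 0.13, edgeR quasi-likelihood, adjusted p = 0.01259). The largest that did not pass were *PTMA* (-0.48), an abundant gene with many processed copies, and *TFRC* (-0.44), the transferrin receptor gene. *ODC1*, the rate-limiting enzyme of polyamine synthesis, had 641, 666 and 631 CPM in siCtrl and 454 and 555 in siFAM53C, with a log2 fold change of -0.36 (SE 0.13, edgeR quasi-likelihood, adjusted p = 0.2062). *ODC1* and *FBXW7*, *SIN3A*, *SIN3B*, *HDAC1*, *MLXIP*, *MLXIPL* and *ARRDC4* are named for their known roles, after their values had been seen.

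Of 13 genes long described as repressed by MYC, 8 were tested, 5 were above 0 (51.8% of all genes were) and the median was 0.33. By edgeR 2 were higher (25%, where 0.489% of all genes were) and 0 lower (where 3.47% were). DESeq2 called 0 lower, beside 6.74% of all genes, and 1 was lower at an unadjusted p under 0.05, beside 10.5%. *CDKN2B*, which encodes the CDK4/6 inhibitor p15, had 8.91, 8.31 and 10.5 CPM in siCtrl and 19.3 and 18.0 in siFAM53C (log2 fold change 1.01, SE 0.18, edgeR quasi-likelihood, adjusted p = 0.02289). *PDGFRB*, a growth factor receptor gene whose 3' UTR holds the heptamer, rose by 0.67 on the log2 scale (SE 0.12). *CDKN1B*, the gene of p27 (0.45), and *NDRG1* (-0.68) did not pass. The median of the list over the libraries was 0.054, -0.115 and -0.221 in siCtrl and 0.175 and 0.061 in siFAM53C. The siFAM53C libraries were the highest, but 0.061 lay only just above the 0.054 of siCtrl replicate 1, for a median of 8 genes. Of single genes tested, 16.7% had both siFAM53C libraries above every siCtrl library. The called genes of the MYC-induced and MYC-repressed lists were, apart from *CBX3*, not called without siCtrl replicate 1, siCtrl replicate 2 or siFAM53C replicate 1, and apart from *CBX3* and *GNL3* not called without siFAM53C replicate 2.

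**Figure D4:**
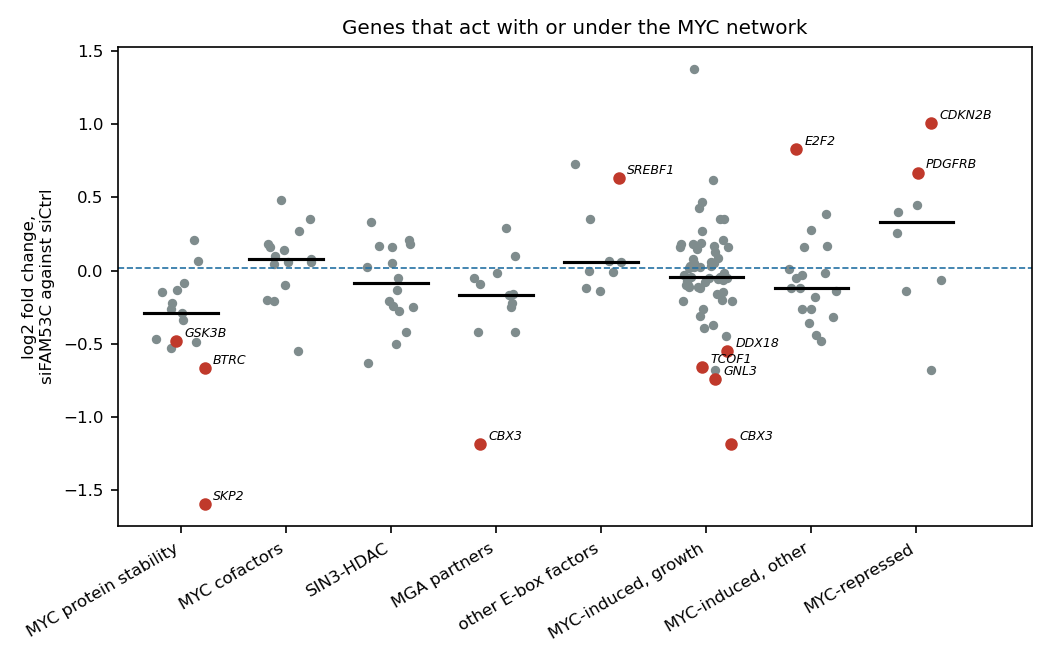
Log2 fold change, siFAM53C against siCtrl, of each tested gene in 8 lists of genes that act with or under the MYC network. Each point is a gene, red and named where called by edgeR, the black line is the median of the list and the dashed line that of all genes tested (0.016); medians run from -0.29 for MYC protein stability to 0.33 for MYC-repressed genes.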

How the data were processed

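Per the labels and the paper's methods, the authors ran cutadapt 2.10 on paired reads, used HISAT2 with a reverse-strand setting against hg38 (mm10 is also listed in the processing notes, but all identifiers are human) and deposited raw counts per gene from featureCounts. HISAT2 and featureCounts versions, the annotation release and the strand setting of the counting are not given in the sources used here; if strand was ignored, exons that lie opposite another gene are uncertain. The methods name duplicates and DESeq2; all 3 siCtrl and 2 siFAM53C libraries were used. Symbols and positions for 56105 identifiers came from GENCODE release 44 on GRCh38, and RPKM used the union of its exons. In R 4.3.3 with edgeR 4.0.16, genes were kept by filterByExpr (minimum count 10, minimum total 15), scaled by TMM and tested by the robust quasi-likelihood test with Benjamini-Hochberg adjustment over all genes tested and a threshold of 0.05. The log2 CPM had a prior count of 2. In simulated counts of 15341 genes, edgeR recovered 77 of 100 genes with a simulated log2 change of 2 and 40 of 100 with one of 1. DESeq2 1.42.0 and voom in limma 3.58.1 were alternatives, as were other scalings, filters, blocks and left-out libraries; a quasi-likelihood fit without the robust option was added after seeing the data. Members and lists were chosen with earlier results of these data known, and the lists were written from general knowledge. Genes were named by a rule: *FAM53C*, the members, up to 6 called genes and the 2 largest uncalled genes of each list (from 10 CPM on average), and the 3 nearest profiles to *MYC* and to each called member.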

Additional observations from a re-analysis of the deposited data

How the results depend on the processing

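*FAM53C* was called in each alternative, and *MYC* stayed below 0 and uncalled in each. Leaving out each library in turn gave from 0 to 1 members lower and 0 higher, with *MXI1*, below 0 in each of these fits, called only without siCtrl replicate 3. Members called higher numbered 1 at an unadjusted p, 1 with a replicate block by column names and 2 with the term for the library split. *MGA*, at -0.46 to 0.041 over the leave-one-out fits, turned above 0 without siCtrl replicate 3 (0.041), without siFAM53C replicate 1 (0.015) and with a replicate block by titles (0.019). *PVT1*, at -0.018 to 0.20 over the leave-one-out fits, turned below 0 without siCtrl replicate 2 (-0.018), without siFAM53C replicate 2 (-0.016) and with a replicate block by column names (-0.02). Over all lists together, 7 genes were lower (4.7%, beside 3.47% of all genes) and 5 higher (3.36%, beside 0.489%). These became 15 lower with DESeq2, 4 lower with library totals, 26 and 14 at an unadjusted p and 19 and 8 with no filter. With a replicate block by column names they were 21 and 12, and with a block by titles 16 and 8. With the split term they were 26 and 16. Over the leave-one-out fits the lower genes numbered from 2 to 19 and the higher genes from 0 to 8, with most without siCtrl replicate 3. The counts over all genes moved too: 533 lower and 75 higher became 888 and 254 with DESeq2, 415 and 121 with library totals, 1607 and 1014 at an unadjusted p, 961 and 375 with no filter, 1350 and 642 with the block by column names, 856 and 355 with that by titles, 1636 and 1037 with the split term and 886 and 414 without siCtrl replicate 3. They were 209 and 9 of 14876 tested genes without siCtrl replicate 1 and 180 and 6 of 15195 without siCtrl replicate 2. Without siCtrl replicate 3, 14986 genes were tested, and with library totals 15341. The ranges by list below include the fits without a siFAM53C library, in which that group has only 1 library. The cause of these shifts was not tested. Beside the counts by list below, 6.74% of all genes were lower and 1.93% higher with DESeq2, and 3.61% and 1.41% with no filter. The shares were 10.5% and 6.61% at an unadjusted p and 10.7% and 6.76% with the split term. They were 8.8% and 4.18% with the block by column names and 5.58% and 2.31% with that by titles.

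By list, MYC stability genes called lower numbered 1 with library totals, 5 with no filter, 6 at an unadjusted p and with the block by column names, 7 with the split term and from 1 to 4 without a library. Growth genes called lower numbered 7 with no filter and with the block by titles, 8 with the block by column names, 9 at an unadjusted p, 11 with the split term and from 1 to 9 without a library, and those called higher 1 with no filter and with DESeq2, 2 with the block by column names and with the split term and 3 at an unadjusted p. Other MYC-induced genes called lower numbered 1 with DESeq2, 2 with no filter, 3 with either block and with the split term, 5 at an unadjusted p and from 0 to 2 without a library, and those called higher 2 at an unadjusted p and from 0 to 1 without a library. MYC-repressed genes called higher numbered 5 with the block by column names and with the split term and from 0 to 3 without a library, and those called lower 1 at an unadjusted p, with no filter, with the block by titles and with the split term and from 0 to 1 without a library.

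SIN3-HDAC genes called lower numbered 3 with DESeq2, with no filter and with the block by column names, 1 with the block by titles, 4 at an unadjusted p and with the split term and from 0 to 2 without a library, and 1 was called higher at an unadjusted p and with the split term. MYC cofactors called lower numbered 1 with DESeq2, at an unadjusted p, with no filter, with the block by column names and with the split term and from 0 to 1 without a library, and those called higher 1 with no filter and with the block by column names, 2 with the block by titles, 3 at an unadjusted p and with the split term and from 0 to 2 without a library. MGA partners called lower numbered 2 with DESeq2, at an unadjusted p, with no filter, with either block and with the split term and from 1 to 2 without a library, and 1 was higher with the split term. Other E-box factors called higher numbered 2 with the block by column names and with the split term and from 0 to 1 without a library, as did MLX targets from 0 to 1. The replicate numbers of titles and column names disagree for siFAM53C replicate 2, and the deviations of same-numbered libraries from their group means had correlations of 0.169 and -0.285 by titles and 0.169 and 0.371 by column names, so the numbers were not taken to pair libraries. Simulated log2 changes below 1 were not run, so the share of such changes that this design recovers is unknown.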
